A study of Mus musculus with 16 samples.

Results

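The ribosome of the cytosol is built from ribosomal RNA and a set of small, mostly basic proteins, and the messenger RNAs of these proteins are among the most abundant in a growing cell. This account follows the mouse genes of those proteins in sorted thymocytes. Members were chosen by name, as protein-coding genes whose symbol starts with Rpl or Rps and a digit, plus Rplp0, Rplp1, Rplp2 and Rpsa, without names ending in a pseudogene suffix and without the Rps6k kinases. The rule found 86 genes in the files, out of 55335 rows in the libraries with an age and 54532 in those without one. Of these, 52 names start with Rpl and 34 with Rps. The core set has 77 genes, 46 of the large subunit and 31 of the small subunit. Another 8 are paralogs of a core gene (Rpl3l, Rpl7l1, Rpl10l, Rpl22l1, Rpl36al, Rpl39l, Rps27l and Rps27rt). The last, Rps19bp1, meets the name rule but encodes a protein that binds RPS19 and is not itself part of the ribosome.

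Each ribosomal protein is needed in equal amount with its partners, so cells make these proteins together and destroy the excess. In vertebrates most of their messenger RNAs begin with a run of pyrimidines, the terminal oligopyrimidine or TOP motif, through which mTORC1 and the RNA-binding protein LARP1 set how much of each message is translated. T cell development is sensitive to the supply of single ribosomal proteins: in mice, loss of Rpl22 stops developing alpha-beta T cells early while its paralog Rpl22l1 is raised.

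The RNA came from mouse thymic double-positive cells, which carry both CD4 and CD8 and in which the receptor is tested for selection, after sorting by flow cytometry. The labels place 16 libraries in 5 groups: old WT (4 libraries), young METTL3 KO (3) and young WT (3), and METTL3 KO (3) and WT (3) with no age stated. METTL3 is the catalytic subunit of the enzyme that writes N6-methyladenosine on RNA. The labels give the ages only as young and old, and the sources used here do not give the knockout's driver, strain or breeding. They do not say that replicates came from separate animals, so every p-value measures the spread between these samples, which may be technical.

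Library totals and cell identity set the limits for what follows. Libraries with an age held 9781368 to 10307780 gene counts. Without an age, KO libraries held 10575795 to 13740694 and WT libraries 15927134 to 16167074. Unaligned entries were 52.1% to 52.2% of the total in KO and 50.5% to 50.6% in WT without an age, where libraries with an age had 0.577% to 0.826%. Comparisons between the sets therefore used only the KO difference found within each. Mettl3 stood at 62.1, 64.5 and 64.3 CPM in the libraries labelled young KO, against 66.0, 65.7 and 59.5 CPM in young WT, and so did not mark the KO label there. In the set without an age it stood at 32.5, 38.6 and 27.0 CPM in KO and 54.5, 47.2 and 45.1 CPM in WT (log2 change -0.58 ± 0.18, adjusted p = 0.0189, edgeR's quasi-likelihood test with Benjamini-Hochberg adjustment). Here and below CPM is counts scaled to a common library total by TMM, done separately in each set, and a change is a log2 fold change ± its standard error. All 13 markers of double-positive thymocytes were detected in every library, with sums of 17037 to 20500 CPM in old WT, 19530 to 20528 CPM in young KO, 19216 to 21422 CPM in young WT, 11755 to 15659 CPM in KO without an age and 20859 to 22691 CPM in WT without an age.

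Start-site sequences were looked up because the pyrimidine run is the feature this gene family is best known to share. In the RefSeq table for GRCm38.p6, 66 of the 86 members had an annotated start, and 45 of those (68.2%) had a run of at least 7 C or T bases that began with C, on the strand of the gene and within 30 bases of a start. The same search over all 27025 genes of the table found a run in 8424 (31.2%). The following members with a run come from both subunits and the stalk, written 5′ to 3′ with the run in capitals.
Rpl28: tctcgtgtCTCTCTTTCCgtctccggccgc
Rpl38: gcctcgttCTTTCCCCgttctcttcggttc
Rplp2: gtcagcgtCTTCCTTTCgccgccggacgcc
Rps15: agcccgtaCTTCCTTTTCCgagtaaccgcc
Rps24: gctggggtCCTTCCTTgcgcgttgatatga
Rpl22l1: agcccgttCTCTTCCCacggctgcagctca
These windows lie on the plus strand at chr7:4792955-4792984 for Rpl28, chr11:114668572-114668601 for Rpl38, chr7:141447639-141447668 for Rplp2, chr10:80292448-80292477 for Rps15, chr14:24490668-24490697 for Rps24 and chr3:28805503-28805532 for Rpl22l1. The windows of Rpl7l1, the only member called lower in any comparison, and of Rplp0, the stalk base, held no such run around their annotated starts.
Rpl7l1: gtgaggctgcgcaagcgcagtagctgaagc
Rplp0: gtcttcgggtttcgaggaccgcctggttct
Rpl7l1 lies on the minus strand at chr17:46782642-46782671 and Rplp0 on the plus strand at chr5:115559452-115559481. A match is only a description of these letters, and a window without one says nothing of the gene's regulation.

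The members were abundant in every library. They took 3.50, 2.66, 2.88 and 2.35% of gene counts in old WT, 3.35, 3.57 and 3.27% in the libraries labelled young KO and 2.92, 3.16 and 3.58% in young WT. Without an age they took 3.52, 3.65 and 6.62% in KO and 3.35, 3.49 and 2.72% in WT. The means were 2.85 ± 0.486% in old WT (SD, n = 4), 3.40 ± 0.156% in young KO and 3.22 ± 0.334% in young WT (n = 3 each), and 4.60 ± 1.75% in KO and 3.19 ± 0.408% in WT without an age (n = 3 each). Old WT replicate 1 lay inside the range of young WT and the other 3 old WT libraries below it, and KO replicate 3 without an age stood apart from every other library.

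**Figure D1:**
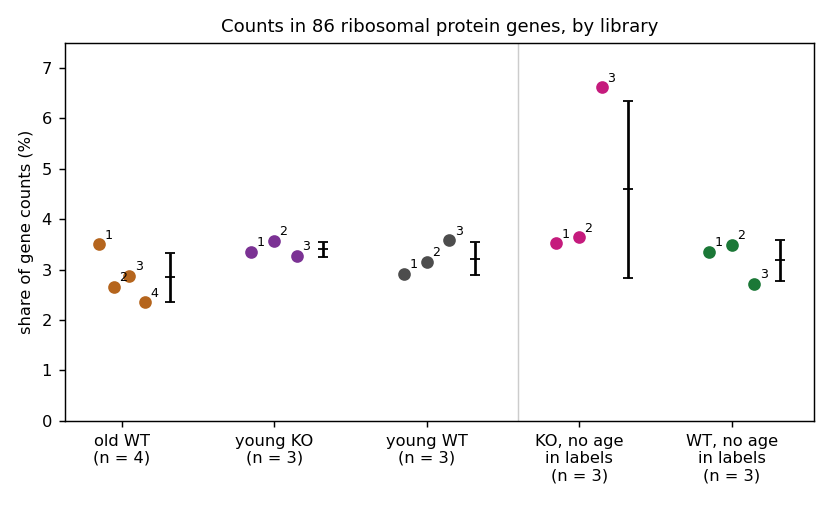
Share of all gene counts that fell on the 86 ribosomal protein genes, in percent, with 1 dot per library marked by its replicate number and the group mean ± SD as a bar. KO replicate 3 without an age reached 6.62%, while the other 15 libraries lay between 2.35% and 3.65%.

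The members lie on 19 chromosomes and differed widely in level. In young WT the median member had 326.7 CPM, 70 members averaged over 100 CPM and 8 under 15 CPM, and the 10 highest held 31.1% of the members' total. Rpl4, a protein of the large subunit, was the highest at 1207, 1281 and 1448 CPM. Per kilobase of transcript the order changed: Rps14, at the platform of the small subunit, averaged 1326 ± 298 CPM per kilobase, Rps3a1 1170 ± 59.6, Rps9 1091 ± 111, Rplp0 927 ± 40.9 and Rpl7 913 ± 139 (SD, n = 3 each). Neighbours in that order overlapped between libraries, apart from Rps9 and Rplp0, whose ranges did not meet.

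Several low values came with shared sequence. Rpl24, Rpl36al, Rpl13a and Rps10 were the 4 members with over 50% of their exon bases inside another gene on the same strand (71.5, 63.1, 59.3 and 53.6%), where reads may have been left uncounted as ambiguous. Rpl24 stood at 2.44, 2.58, 2.79 and 1.74 CPM in old WT, 2.08, 1.78 and 1.49 CPM in young KO and 1.17, 1.30 and 2.01 CPM in young WT, far below the rest of the large subunit. Of the 86 members, 79 have at least 1 near-identical copy elsewhere in the genome (95% identity over 80% of the coding sequence), with a median of 5 copies. Rpl21 had the most, 57, so its level depends on how reads that fit several places were handled, and it is uncertain. Rpl28 and Rpl22l1 are among 13 members with an exon of another gene on the opposite strand, over 16.5% and 28.8% of their exon bases, and whether counting used strand is not stated.

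Paralogs of tissue-restricted type were close to silent. Rpl10l, a testis paralog of Rpl10, had 0 counts in all 16 libraries. Rpl3l, the muscle paralog of Rpl3, stayed between 0 and 2.19 CPM, and Rpl39l, a testis paralog of Rpl39, between 0 and 1.95 CPM. The core partners stood far above them in young WT, with 775, 794 and 843 CPM for Rpl3, 496, 514 and 567 CPM for Rpl10 and 120, 120 and 134 CPM for Rpl39. Of the other paralogs in young WT, Rpl22l1 had 57.4, 68.0 and 87.1 CPM, Rpl7l1 76.3, 77.2 and 76.4 CPM, Rps27l, a p53 target, 33.1, 31.2 and 47.7 CPM, and Rps27rt 50.9, 19.2 and 20.2 CPM.

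Most members moved together from library to library. Over the 10 libraries with an age, the correlation of a member's log2 CPM with the mean of the other members had a median of 0.918, with 46 of 83 members over 0.9 and 69 over 0.8. The points share depth and scaling, so this is a description. The 6 members under 0.5 were Rps27rt (-0.147), Rpl24 (0.035), Rpl7l1 (0.050), Rps27a (0.229), Rpl17 (0.405) and Rpl36al (0.477). Rps27a, which encodes a small subunit protein fused to ubiquitin, had 278, 206, 335 and 266 CPM in old WT, 282, 481 and 167 CPM in young KO and 131, 345 and 228 CPM in young WT, without following the other members. Of the 5 genes outside the family most like the members' mean log2 CPM over these 10 libraries, Psmb7, a proteasome subunit, came first (r = 0.977). The others were Hist1h4h, a histone averaging only 1.35 CPM (0.969), Brk1 (0.969), and Ndufa2 and Atp5j of mitochondrial oxidative phosphorylation (0.967 each).

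The age comparison asks what differed between old and young WT cells. Most members had lower values in old WT, but none passed the test. Of 83 members tested, 0 were called at an adjusted p under 0.05 by edgeR's quasi-likelihood test, against 0.253% of all 14228 genes, and DESeq2 also called 0. An unadjusted p under 0.05 was reached by 12 members (14.5%) and by 12.1% of all genes. Estimated changes were below 0 for 76 members and above 0 for 7, with a median of -0.18, against 0.01 for all genes. Both subunits lay on the same side, with 41 of 46 large and 30 of 31 small core members below 0. In no member did the groups fail to overlap, against 5.65% of all genes with old WT wholly higher and 4.13% wholly lower.

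The lower values in old WT came from some libraries and not others. Old WT replicate 4 lay below all young WT libraries in 80 of 83 members and replicate 2 in 72, against 31 for replicate 3 and 1 for replicate 1. Replicate 1 instead lay above all young WT libraries in 22 members. The mean log2 CPM of the members was 8.08, 7.68, 7.84 and 7.48 in old WT and 7.82, 7.89 and 8.11 in young WT. The median change was -0.31 without old WT replicate 1, -0.22 without old WT replicate 3 and -0.10 without old WT replicate 4 or without young WT replicate 3.

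The members at the low end included large and small subunit genes. Rpl15 had 462, 381, 309 and 307 CPM in old WT and 428, 465 and 552 CPM in young WT, a change of -0.40 ± 0.14 (adjusted p = 0.324, edgeR). One old library lay within the young range and 3 lay below it. Rps27, a zinc-finger protein of the small subunit, had 172, 141, 113 and 112 CPM in old WT and 137, 168 and 231 CPM in young WT (-0.41 ± 0.18, adjusted p = 0.387, edgeR). Rpl22l1 had 69.2, 50.7, 55.4 and 42.2 CPM in old WT and 57.4, 68.0 and 87.1 CPM in young WT (-0.38 ± 0.16, adjusted p = 0.382, edgeR). In both, the highest old library lay inside the young range. Rpl17 stood at -0.40 ± 0.35 and varied within every group. At the other end were Rpl24 (0.67 ± 0.30), Rpl36al (0.29), Rpl7a (0.22) and Rps27a (0.21), of which Rpl24 and Rpl36al are the low members with shared sequence. Markers of other cell types differed between the same libraries. For 13 B cell genes, sums ran from 491 to 2157 CPM in old WT against 441 to 497 CPM in young WT. Sums ran from 59.6 to 936 CPM against 44.4 to 79.3 CPM for 10 dendritic genes. For 11 myeloid genes they ran from 40.5 to 267 CPM against 31.5 to 34.7 CPM. For 12 mature single-positive thymocyte genes they ran from 376 to 772 CPM against 364 to 376 CPM. For NK, NKT and gamma-delta genes, sums ran from 69.3 to 177 CPM in old WT against 100 to 115 CPM in young WT. Erythroid sums ran from 1.56 to 47.5 CPM against 4.57 to 13.6 CPM, and thymic epithelium sums from 19.5 to 37.1 CPM against 24.0 to 29.3 CPM. Early thymocyte sums ran from 215 to 311 CPM against 220 to 331 CPM. Old WT replicate 3 set the upper ends of the B cell, dendritic, myeloid, single-positive, erythroid, and NK, NKT and gamma-delta sums. It had 9.59% mitochondrial counts, where the other libraries with an age had at most 2.84%. Old WT replicate 4, the lowest in most members, stood at 491 CPM for the B cell list and 59.6 CPM for the dendritic list. No B cell or single-positive gene was at 0 in these libraries. Of the dendritic genes Batf3 was at 0 in 3 of the 4 old WT and 2 of the 3 young WT libraries. Of the myeloid genes Fcgr3 was at 0 in replicate 1 of old WT and of young WT. The part of these markers in the members' values was not tested. In bulk RNA, fewer cells of a type and less RNA per cell cannot be told apart.

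Libraries labelled young KO differed little from young WT in these genes. Of 83 members, 0 were called by edgeR's quasi-likelihood test, 0 had an unadjusted p under 0.05 (0.619% of all genes did), and DESeq2 called 0, where 0% of all 14228 genes were called. The estimates leaned to one side: 76 members were above 0 and 7 below, with a median of 0.09, against -0.00 for all genes. In the core, 42 of 46 large and 29 of 31 small subunit members were above 0. The groups did not overlap in 3 members, Rpl13a, Rpl39 and Rpl7a, all higher in the libraries labelled young KO, where 4.55% of all genes were wholly higher and 4.71% wholly lower.

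Single libraries set the size of that lean. Young KO replicate 2 lay above all young WT libraries in 42 members, replicate 1 in 22 and replicate 3 in 4. Rpl39, one of the smallest proteins of the large subunit, had 142, 140 and 146 CPM in the libraries labelled young KO and 120, 120 and 134 CPM in young WT. Its change was 0.20 ± 0.13, with a 95% interval of -0.09 to 0.48. The largest estimates were Rps27a (0.40 ± 0.44), Rpl36al (0.40), Rpl21 (0.36 ± 0.26) and Rpl7a (0.34 ± 0.34), and the smallest Rpl17 (-0.55 ± 0.37), Rps27rt (-0.28), Rpl29 (-0.14) and Rpl6 (-0.06), all with an adjusted p of 1 by edgeR. The median was 0.03 without young WT replicate 1, 0.05 without young KO replicate 2 and 0.19 without young WT replicate 3. Shorter coding sequences had higher estimates: the median was 0.18, 0.09 and 0.04 in members with coding sequences of 75 to 396, 399 to 552 and 564 to 1257 bases. Over members the rank correlation with coding length was -0.57, against -0.194 over all genes, as a description across genes, which are not independent.

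**Figure D2:**
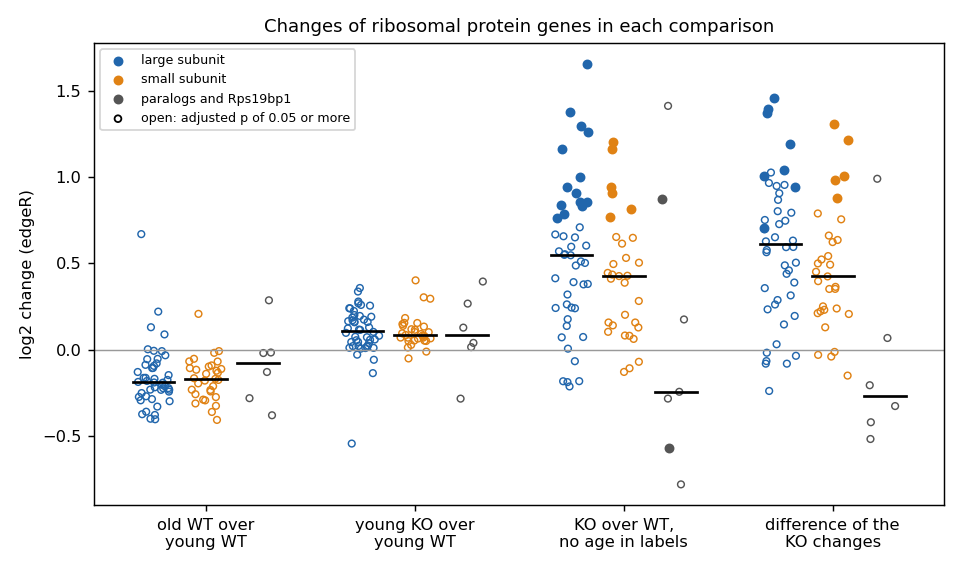
Log2 fold change of each tested ribosomal protein gene, in strips for the large subunit, the small subunit and the paralogs with Rps19bp1. The comparisons are old WT over young WT, young KO over young WT, KO over WT without an age, and the difference between the KO changes. Each dot is 1 gene, filled where its adjusted p is under 0.05, and the bar is the median. Filled dots appear only in KO over WT without an age, 21 above 0 and 1 below, and in the difference between the KO changes, 13 above 0.

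In the set without an age, 21 of 84 members were higher in KO than in WT and 1, Rpl7l1, was lower, by edgeR's quasi-likelihood test at an adjusted p under 0.05. Of all 16432 genes tested, 53.9% were called, 29.9% higher and 24% lower, so the members' counts were not above the background in either direction. Estimates were above 0 for 72 members and below 0 for 12, with a median of 0.44 against 0.08 for all genes. The groups did not overlap in 23 members higher and 1 lower, against 34.3% and 29.5% of all genes.

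Of the large subunit core, 14 of 46 members rose (median change 0.55), where 29.9% of all genes did (median 0.08). Rpl36 (chromosome 17, 56613416 to 56614243 of mm10) had 395, 413 and 835 CPM in KO and 255, 259 and 119 CPM in WT, a change of 1.38 ± 0.34 (adjusted p = 0.00667, edgeR). Every KO library lay above every WT library, with KO replicate 3 highest and WT replicate 3 lowest. Rpl41, which encodes the smallest ribosomal protein (chromosome 10, 128548114 to 128549305), had 887, 740 and 1653 CPM in KO and 494, 541 and 300 CPM in WT (1.30 ± 0.30, adjusted p = 0.00384, edgeR). Rpl28 had 807, 783 and 1770 CPM in KO and 551, 573 and 278 CPM in WT (1.26 ± 0.35, adjusted p = 0.0103, edgeR). Both showed the same layout, without overlap and with the third library of each group at the extremes.

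Rpl21 (chromosome 5, 146832890 to 146837032 of mm10, plus strand) had the largest change, with 274, 155 and 383 CPM in KO and 92.5, 102 and 62.7 CPM in WT (1.66 ± 0.29, 95% interval 1.02 to 2.30, adjusted p = 0.000828, edgeR). Given its 57 near-identical copies, how many of its reads came from the gene is uncertain. Rpl38, which in mice is needed for the translation of certain Hox messages, had 188, 155 and 272 CPM in KO and 106, 119 and 49.7 CPM in WT (1.16 ± 0.30, adjusted p = 0.00671, edgeR). The other large subunit members that rose were Rpl11, Rpl13, Rpl14, Rpl22, Rpl31, Rpl35, Rpl36a, Rplp1 and Rplp2, with changes between 0.76 and 1.00. Rpl11 and Rpl5 bind MDM2 together when ribosome assembly fails: Rpl11 had 691, 739 and 1391 CPM in KO and 617, 649 and 314 CPM in WT (0.84 ± 0.31, adjusted p = 0.0378, edgeR), while Rpl5 had 518, 517 and 1218 CPM in KO and 652, 632 and 624 CPM in WT (0.24 ± 0.29, adjusted p = 0.503, edgeR). For Rpl5, KO replicates 1 and 2 lay below WT and replicate 3 above it. Rpl3 (0.07) and Rpl10 (0.01), which shape the catalytic centre and the last steps of large subunit assembly, and Rpl7 (-0.18) did not pass the test.

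Of the 3 proteins of the acidic stalk, which recruits elongation factors to the ribosome, 2 rose in KO, where 29.9% of all genes did. Rplp1 had 816, 737 and 1652 CPM in KO and 660, 727 and 502 CPM in WT (0.76 ± 0.28, adjusted p = 0.0378, edgeR). Rplp2, whose start sequence is shown above, had 557, 493 and 929 CPM in KO and 384, 425 and 283 CPM in WT (0.86 ± 0.24, adjusted p = 0.0108, edgeR). Rplp0, the base on which the other two sit, had 805, 930 and 1998 CPM in KO and 1434, 1457 and 1350 CPM in WT (-0.18 ± 0.29, adjusted p = 0.612, edgeR). Its KO libraries lay on both sides of WT.

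Of the small subunit core, 6 of 31 members rose (median change 0.43), where 29.9% of all genes did (median 0.08). Rps19, mutated in many people with Diamond-Blackfan anaemia, had 552, 490 and 1163 CPM in KO and 352, 381 and 252 CPM in WT (1.16 ± 0.30, adjusted p = 0.00661, edgeR). Rps15, which is needed late in small subunit assembly, had 777, 726 and 1716 CPM in KO and 522, 544 and 329 CPM in WT (1.21 ± 0.31, adjusted p = 0.00728, edgeR). In both, the lowest KO library was above the highest WT library. Rps24 (0.94), Rps20 (0.91), Rps21 (0.82) and Rpsa (0.77), the last also known as a laminin receptor, made up the rest. Rpsa had 1179, 1037 and 2577 CPM in KO and 910, 915 and 986 CPM in WT (adjusted p = 0.0419, edgeR). Rps6, the substrate of the S6 kinases, had 526, 609 and 1246 CPM in KO and 724, 713 and 742 CPM in WT (0.13 ± 0.27, adjusted p = 0.713, edgeR), so KO replicate 3 lay above WT and the other two below. Rps14 (0.10), Rps4x (0.08), Rps29 (0.50) and Rps27 (0.50) did not pass the test.

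**Figure D3:**
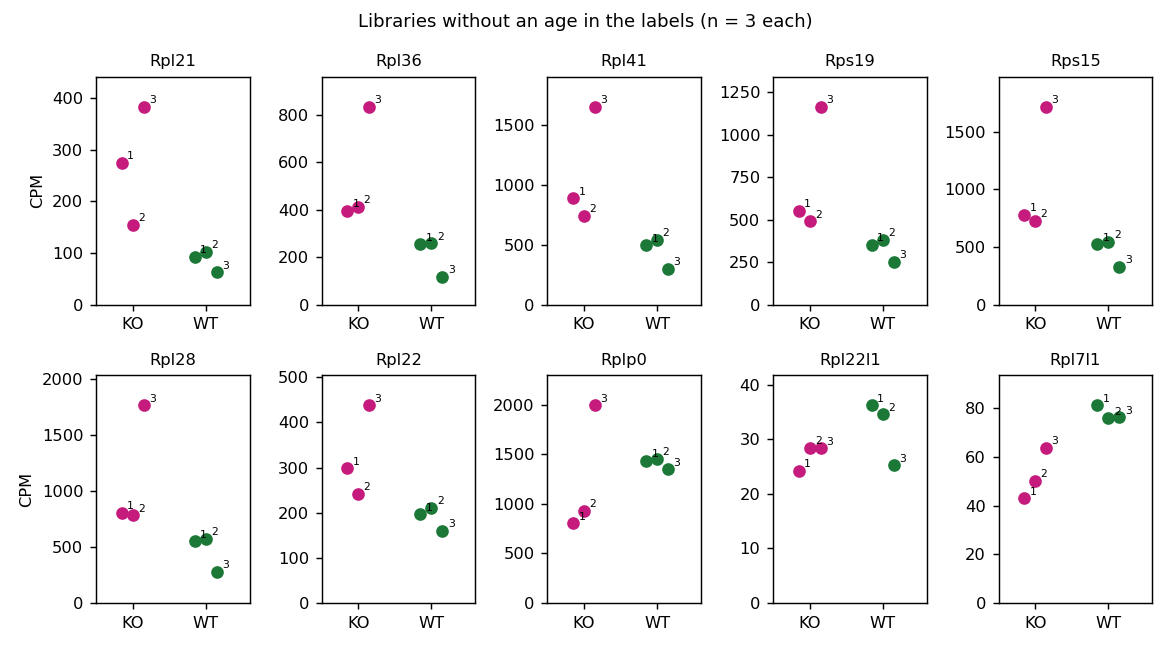
TMM-scaled CPM of 10 members in the libraries without an age, KO at the left and WT at the right of each panel, with 1 point per library marked by its replicate number. KO lay wholly above WT for Rpl21, Rpl36, Rpl41, Rps19, Rps15, Rpl28 and Rpl22, overlapped WT for Rplp0 and Rpl22l1, and lay wholly below WT for Rpl7l1.

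Of 6 paralogs tested, the only call was Rpl7l1, which was lower in KO, as were 24% of all genes. The gene lies on chromosome 17 at 46773907 to 46782672 of mm10, on the minus strand, and had 42.9, 50.1 and 63.6 CPM in KO and 81.2, 75.8 and 76.2 CPM in WT (-0.57 ± 0.17, adjusted p = 0.0160, edgeR). All its KO libraries lay below WT, KO replicate 3 included, which was the highest library for 77 of 84 members. Rpl3l (1.41, adjusted p = 0.068 by edgeR) was tested at a level of at most 2.19 CPM. Rps19bp1, the binding partner of RPS19, had 21.1, 17.9 and 45.7 CPM in KO and 14.8, 17.2 and 14.3 CPM in WT and rose (0.87 ± 0.32, adjusted p = 0.0350, edgeR).

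Rpl22, which in mice represses its paralog Rpl22l1, had 298, 242 and 438 CPM in KO and 196, 211 and 160 CPM in WT (0.79 ± 0.21, adjusted p = 0.00884, edgeR), while Rpl22l1 had 24.2, 28.5 and 28.3 CPM in KO and 36.2, 34.5 and 25.2 CPM in WT (-0.25 ± 0.19, adjusted p = 0.307, edgeR). The ratio of Rpl22 to Rpl22l1 within a library was 12.3, 8.51 and 15.5 in KO and 5.41, 6.10 and 6.33 in WT, without overlap. Among the libraries with an age it was 2.77 ± 0.0544 in old WT (SD, n = 4), 2.69 ± 0.0939 in young KO and 2.50 ± 0.142 in young WT (n = 3 each). Ratios across the sets rest on separate libraries with different alignment rates. The ratio of Rps27 to Rps27l averaged 10.2 ± 1.40 in these KO libraries and 8.04 ± 0.356 in these WT libraries, and that of Rpl36a to Rpl36al 91.0 ± 4.21 in KO and 40.2 ± 5.38 in WT (SD, n = 3 each), the second with a partner of under 4 CPM.

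Fau and Rack1 encode ribosomal proteins that the name rule leaves out. Fau, which encodes a small subunit protein fused to a ubiquitin-like domain, had 763, 745 and 1761 CPM in KO and 574, 613 and 435 CPM in WT (1.01 ± 0.30, adjusted p = 0.0144, edgeR). Rack1, the scaffold protein at the head of the small subunit, had 652, 633 and 1327 CPM in KO and 922, 909 and 917 CPM in WT (-0.07, adjusted p = 0.827, edgeR), with KO libraries on both sides of WT.

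Much of the difference without an age moved with 1 library. KO replicate 3 was the highest of the 6 libraries in 77 of 84 members, and WT replicate 3 was the lowest in 51. Members above all WT libraries numbered 34 in KO replicate 1, 32 in replicate 2 and 77 in replicate 3, while 22, 22 and 1 lay below all WT libraries. Without KO replicate 3 the median change was 0.06, with 48 members above 0 and 36 below, and 12 were called higher and 13 lower. Without WT replicate 3, 8 were called higher and 1 lower. By Xist and Y-linked genes, KO replicates 1 and 2 were female while KO replicate 3 and all 3 WT libraries were male. With sex as a covariate the median was 0.96, but that fit rests the KO difference on KO replicate 3, the only male KO library. Rpl21, Rpl36, Rpl41, Rps15 and Rps19 kept their call with any 1 of the 6 libraries left out, whether or not the filter on low counts was set anew.

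**Figure D4:**
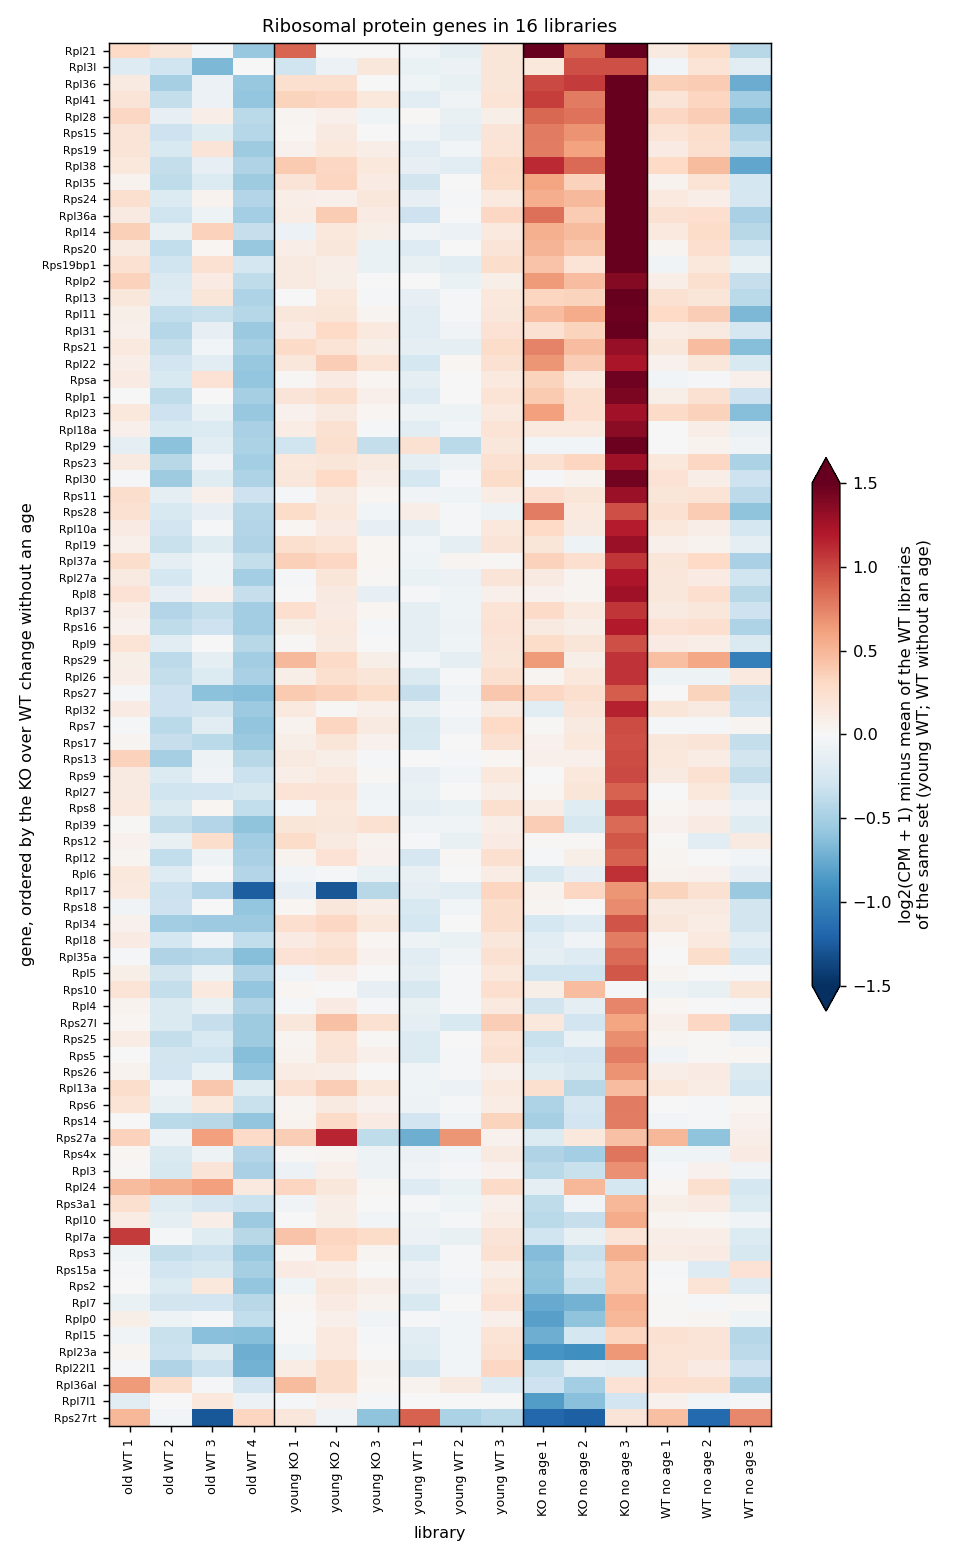
Log2(CPM + 1) of the 84 members tested without an age in all 16 libraries, less the mean of the WT libraries of the same set (young WT or WT without an age), with members ordered by their change in KO without an age and colours limited to 1.5 on either side of 0. KO replicate 3 without an age is above its WT mean for most members and old WT replicate 4 mostly below. The libraries labelled young KO stay near 0 apart from single members such as Rpl17, Rps27a and Rpl21.

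Transcript length and base composition moved with the KO difference without an age over all genes. The median change over all genes by quartile of transcript length, shortest to longest, was 0.35, 0.09, -0.15 and -0.43, and 75 members fell in the shortest quartile, with a median of 0.45. By quartile of GC content it was -0.52, -0.21, 0.14 and 0.53 for all genes, lowest GC first, and 0.03, 0.41, 0.42 and 0.86 for members. With the length trend of all genes taken out of each library, the members' median turned to -0.19, with 26 above 0 and 58 below, and 5 were called higher and 16 lower. With the GC trend taken out it was 0.25, with 10 called higher and 2 lower. Rpl21 kept its call in both (1.37 and 1.63). Members with the pyrimidine run had a median of 0.44 and those without one 0.42. The medians with and without the run were -0.18 and -0.12 in old WT over young WT and 0.12 and 0.06 in young KO over young WT.

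**Figure D5:**
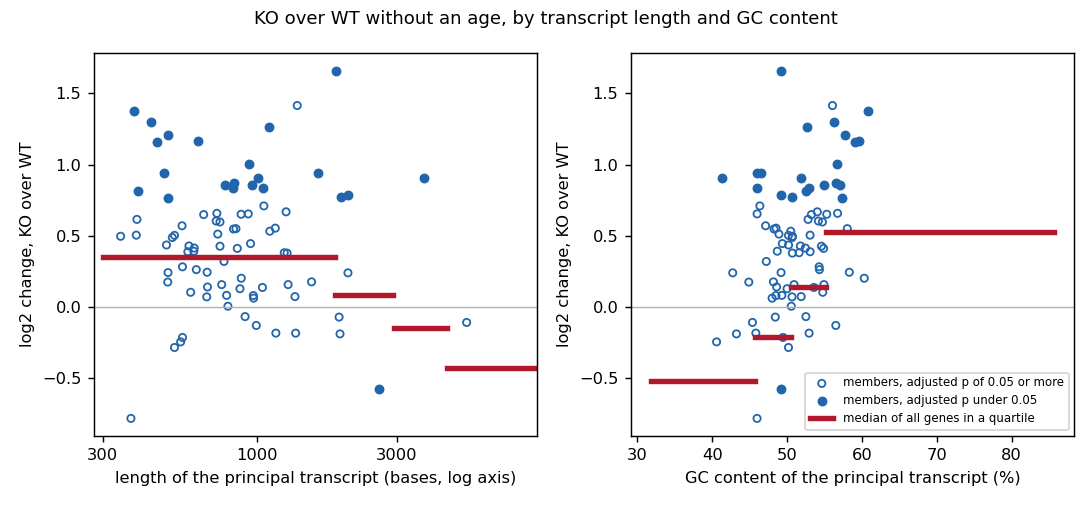
Change of each member in KO over WT without an age against the length (log axis) and the GC content of its transcript, with the median change of all genes per quartile in red. Members lie mostly in the shortest quartile, where all genes had a median of 0.35, and those of higher GC content lie higher.

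The KO difference was larger without an age than between young KO and young WT for 13 of 83 members, and no call went the other way, by a test of the interaction between genotype and set across 12 libraries (edgeR's quasi-likelihood test, with 33.7% of members and 47.1% of all genes under an unadjusted p of 0.05). DESeq2 called 21, all in this direction. Of all genes, 36.9% were called, 19.2% higher and 17.7% lower. These were Rps15, Rps19, Rplp2, Rpl41, Rpl28, Rps24, Rpl21, Rpl36, Rpl14, Rps20, Rpl22, Rpl38 and Rpsa, with differences between 0.71 and 1.46 and adjusted p between 0.0138 and 0.0489. The median over members was 0.50, against 0.14 for all genes, with 69 members above 0 and 14 below. Without KO replicate 3 of the set without an age, 9 were called higher and 4 lower, and the length offset gave a median of 0.21 with 13 higher and 2 lower. With the filter set anew, leaving out any 1 of the 6 young libraries left 0 or 1 member called higher and 1 or 2 called lower. Set, alignment rate, the unstated age and the unchanged Mettl3 level of the libraries labelled young KO cannot be told apart in this comparison.

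Genes that work with the ribosome were counted in KO over WT without an age beside the same background, 29.9% of all genes higher and 24% lower. Of 77 proteins of the mitochondrial ribosome, 12 rose and 5 fell (median 0.19), Mrpl28 at 1.10 and Mrps2 at -0.89 among them. Of 19 elongation factors and other genes with TOP messages, 1 rose, Eef1d (0.86, adjusted p = 0.00604, edgeR), and 7 fell (median -0.28), among them Eef1a1 (-0.91), Eif4b (-0.77) and Pabpc1, the poly(A)-binding protein (-0.79). Of 47 biogenesis factors, 8 rose and 5 fell (median -0.06), with Nop56 of the box C/D snoRNP at 0.80 and the helicase Ddx21 at -1.14. Of 20 RNA polymerase I genes 6 rose and 4 fell, and of 21 regulators of mTORC1 and TOP messages 2 rose, Rps6kb2 at 1.56 among them, and 9 fell, Larp4 at -1.53 among them. Of 8 snoRNA host genes, 3 rose. The medians of these lists in old WT were -0.07 for the mitochondrial ribosome, -0.12 for TOP messages and -0.10 for biogenesis factors. They were -0.08 for RNA polymerase I and -0.01 for regulators of mTORC1 and TOP messages. For snoRNA hosts the median was -0.22, with 9 of 9 below 0. A list of ribosomal stress and p53 genes had a median of 0.23, and all genes had 0.01. No gene of these lists was called for age, against 0.253% of all genes.

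Other signals differed between the same KO and WT libraries without an age. Of 13 protein-coding genes of the mitochondrial genome, 12 rose (median 1.71). All genes of that genome together took 9.26, 4.55 and 5.45% of counts in KO and 1.59, 1.67 and 2.48% in WT. Of 13 markers of double-positive thymocytes, 7 fell (median -0.43), with the recombinase gene Rag1 at -2.44. Of 11 B cell genes 9 rose (summed level 752 to 1174 CPM in KO and 537 to 636 CPM in WT). Of 9 dendritic genes 8 rose (117 to 216 CPM in KO and 41.0 to 69.2 CPM in WT). Of all genes, 29.9% were called higher and 24% lower. Myeloid sums were also wholly higher in KO (41.7 to 48.5 CPM against 19.1 to 30.1 CPM). So were NK, NKT and gamma-delta sums (105 to 131 CPM against 72.2 to 96.6 CPM). Single-positive sums were wholly lower (300 to 336 CPM against 409 to 538 CPM). Early thymocyte sums were too (166 to 233 CPM against 261 to 300 CPM), though 8 of 9 genes were above 0. Erythroid and thymic epithelium sums overlapped. Of the B cell genes, Fcmr was at 0 in KO replicate 3 and Ms4a1 in WT replicate 1, and of the dendritic genes Batf3 was at 0 in all 3 WT libraries. The part of these differences in the members' values was not tested.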

How the data were processed

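Bulk RNA sequencing of flow-sorted mouse double-positive thymocytes gave 16 libraries. Per the labels' protocols, total RNA was extracted with Trizol and libraries were prepared by BGI's protocol. Alignment was to mm10 with HISAT2 2.0.5, per the submitters' processing notes. The sources used here do not give the counter, the annotation it read or whether it used strand. The authors deposited raw counts, 1 per gene and library, and summary lines that were kept out of library sizes: entries outside genes made up 47.5% to 51.2% of the libraries with an age, 11.8% to 15.0% of KO and 7.23% to 7.60% of WT without an age.

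Identifiers matched the GENCODE M21 annotation for 55154 of 55335 and 54409 of 54532 rows. Counts were filtered by filterByExpr, scaled by TMM and tested with edgeR 4.0.16 (robust quasi-likelihood, R 4.3.3, limma 3.58.1), two-sided, with Benjamini-Hochberg adjustment over all genes tested and a threshold of 0.05. A joint fit of 10 libraries served age and young KO, 6 libraries served KO without an age, and 12 the interaction. Of the members, 83 passed the filter with an age and 84 without, so counts cover those members only. No 2 libraries held identical values. Standard errors and intervals cover the spread between libraries, and depth, given with the results as a range per set, limits the low members. Copies were found by BLAST 2.17.0. Tables and figures used Python 3.11.15, pandas 2.3.3, scipy 1.17.1 and matplotlib 3.10.9. Start sequences and their coordinates are RefSeq's (GRCm38.p6). The fits were tested on simulated data.

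Members and gene lists were chosen with earlier results of these data known. Genes named were the fixed members of the large and small subunit with known roles or paralogs, up to 6 called members per direction, the 4 members at each end of each comparison, the 5 highest per length, the 5 genes most like the members' mean, and up to 4 genes of each other list by smallest p. Other members named, such as those whose groups did not overlap or that varied most, were chosen after their values were seen. Alternatives were DESeq2 (1.42.0) and its size factors, library size alone, no filter, 1 CPM in 3 libraries, the replicate block, sex as a covariate, offsets for the length and, added after seeing the data, the GC trend, only the groups compared, and each library left out. One gene that the rule names is not reported here.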

Additional observations from a re-analysis of the deposited data

Results flagged for a closer look

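Only old WT held enough libraries for this check. A single library lay far from the others there for 2 of 42 items, which were named members and the members' share of counts. The items come from the same libraries and mostly moved together, so no chance rate can be set beside them. Rpl11 stood at 496 CPM in old WT replicate 1, against 348, 361 and 371 CPM in the other old WT libraries. Rpl39l stood at 1.95 CPM in old WT replicate 1, against 0, 0.198 and 0.290 CPM in the others.

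The KO difference without an age exceeded the young KO difference (log2 scale, edgeR's quasi-likelihood interaction) for 13 of 83 members, against 19.2% of all genes. In the large subunit it was larger by 1.46 for Rpl21, 1.40 for Rpl28, 1.37 for Rpl36, 1.19 for Rpl41, 1.04 for Rpl38, 1.01 for Rpl14, 0.94 for Rplp2 and 0.71 for Rpl22. In the small subunit it was larger by 1.31 for Rps15, 1.22 for Rps19, 1.01 for Rps20, 0.99 for Rps24 and 0.88 for Rpsa.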

How the results depend on the processing

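In the age and young KO comparisons no member was called by edgeR or DESeq2 under any alternative, and the members' medians kept their sign. With libraries left out, the median ran from -0.31 to -0.09 for old WT over young WT and from 0.03 to 0.19 for young KO over young WT. Genes called for age numbered 36, and 85 with no filter, 153 with DESeq2, 61 with the replicate block, 11 with only the groups compared. With a library left out they numbered 8 to 62, and 8 to 59 with the filter on low counts set anew (10 without young WT replicate 2 and 13 without young WT replicate 1). For young KO they numbered 0, and 1 with no filter.

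Without an age, the 22 called members became 13 with the replicate block, 67 with sex as a covariate, 12 with the GC offset, and 9 to 32 with a library left out (8 to 31 with the filter set anew). The members' median of 0.44 became 0.96 with the sex covariate and -0.19 with the length offset, and ran from 0.06 to 0.59 with a library left out (0.0064 to 0.57 with the filter set anew). All WT libraries without an age were male by Xist and Y-linked genes and KO replicate 3 was the only male KO library, so the sex covariate rests the KO difference on that library by its construction. Rplp1 turned to -0.025 with the length offset. The median of all genes was 0.08, and -0.10 with no filter, where the members' median was 0.24.

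For the difference between the KO differences, the 13 called members became 28 with no filter (2 of them lower), 21 with DESeq2, 0 with the replicate block, 43 with the sex covariate, 8 with the GC offset, and 7 to 31 with a library left out. With the filter set anew, calls in either direction numbered 1 to 18. They were 2 without any young WT library or young KO replicate 1, 1 without young KO replicate 2 or 3, and 7 without WT replicate 3 of the set without an age. Without young WT replicate 3 or young KO replicate 2 or 3 these calls were all lower, and without KO replicate 3 of the set without an age 2 were higher and 14 lower. The median over members of 0.50 ran from 0.13 to 0.65 with a library left out, and from -0.070 to 0.57 with the filter set anew (0.17 without young WT replicate 3). It was 0.21 with the length offset and 0.25 with no filter. The median of all genes moved as well, from 0.14 to 0.08 with the length offset and to -0.09 with no filter. It was -0.08 without young WT replicate 3 with the filter set anew. The members' median less that of all genes was 0.36, and in the same order 0.13, 0.34 and 0.26. What caused these moves was not tested.

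Libraries were left out at first with the filter on low counts set anew, and then, after those results were seen, with the genes held fixed. Without KO replicate 3 the first way called 8 members higher and 15 lower with a median of 0.01, and the second 12 and 13 with 0.06. Of the 22 calls, 5 held for every library left out in both ways, and Rpl21 was the 1 member that held in every alternative. Replicate numbers did not pair the libraries: same-numbered libraries correlated between -0.26 and 0.09, none over 0.1. Depth limits Rpl3l, Rpl39l, Rpl24 and Rpl36al most.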
